A study of Mus musculus with 25 samples.

Results

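NRF2, the transcription factor encoded by Nfe2l2, and 9 genes of the antioxidant programme it serves were followed in mouse macrophages that had been driven towards opposite activation states. The 10 genes were taken by name from knowledge of the pathway, with earlier results of these data known. They came out of 24411 gene symbols counted in each of 25 RNA-seq libraries. They are Nfe2l2 itself, Sqstm1, Hmox1, Nqo1, Gclc, Gclm, Slc7a11, Srxn1, Txnrd1 and Prdx1.

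In unstressed cells NRF2 protein is bound by KEAP1 and passed to the proteasome. Electrophiles and oxidants modify KEAP1, NRF2 then gathers in the nucleus, pairs with a small MAF protein and binds antioxidant response elements near its target genes. Activated macrophages make superoxide and nitric oxide, and they need cystine import, glutathione, thioredoxin and heme breakdown to stand their own oxidants. Because NRF2 is controlled largely at the protein level, the level of Nfe2l2 mRNA is not a measure of NRF2 activity, and RNA-seq does not see the protein.

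Bone marrow-derived macrophages (BMDMs) came from C57BL/6 mice and were grown for 4 days with M-CSF at 25 ng/ml. They were left untreated (labelled as cultured for 4 h), given IFN-γ at 100 U/ml together with LPS at 100 ng/ml for 1, 4, 12 or 24 h, which the study calls M1 polarisation and IFN-γ-primed LPS stimulation, or given IL-4 at 10 ng/ml or IL-13 at 10 ng/ml for 12 h, called M2, with n = 3 libraries in each of these 7 groups. RAW264.7, a macrophage-like line from a tumour raised with Abelson murine leukaemia virus in BALB/c mice, was left untreated or given LPS alone at 100 ng/ml for 4 h, with n = 2 libraries each. By the labels both agents were present for the stated time. The study's abstract words priming as IFN-γ pretreatment. Whether any IFN-γ was given ahead of LPS in these samples is not stated in the labels or in the study's methods. No group carried an engineered allele, by the labels. The libraries are described as independent RNA samples, but whether they came from separate animals or cultures is not given, so p-values measure only the spread between these libraries. The same untreated BMDM libraries served as the control of each BMDM comparison, and they differ from the 1, 12 and 24 h groups in time of culture as well as in treatment.

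Levels are sense-strand read counts scaled to a common library size (CPM), without the ribosomal precursor Rn45s and with trimmed mean of M-values (TMM) factors over the 25 libraries, so they can be compared between libraries but not, without a correction for length, between genes. Differences are log2 fold changes ± standard error (SE) from edgeR's quasi-likelihood test over all genes that passed the count filter, and a gene was called higher or lower at a Benjamini-Hochberg adjusted p of at most 0.01. Nqo1 was too low to enter that test, so counts of members are out of 9 tested.

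The libraries held 2378639 to 3357300 sense counts, of which Rn45s took 20.1 to 39.8%. The 8 macrophage markers examined (Adgre1, Csf1r, Cd68, Itgam, Lyz2, Cd14, Mertk and Fcgr1) summed to between 8532 and 32890 CPM, although Mertk had no count in RAW264.7. T cell markers had no count, neutrophil markers summed to at most 9.31 CPM, and 4 fibroblast markers (Col1a1, Col1a2, Dcn and Pdgfra) summed to 50.8 to 104 CPM in BMDMs and to 0 in RAW264.7. Genes checked as marks of the stimuli did not all respond. Il1b was at a mean of 2.52 CPM in control BMDMs against 7442 CPM at 4 h of IFN-γ + LPS. Irf1 was at 44.1 CPM in these controls against 2252 CPM, and Nos2 at 0 CPM against 445.5 CPM. Chil3 was at 5.01 CPM in controls against 715 CPM after IL-4 and 1384 CPM after IL-13. Arg1 was at 0 CPM in controls against 27.4 CPM after IL-4 and 39.0 CPM after IL-13. Retnla reached only 1.86 CPM after IL-4 and 0.529 CPM after IL-13. In RAW264.7 LPS raised Il1b from 0.528 to 2289 CPM and Nos2 from 0.174 to 6.18 CPM. Irf1 stood there at 21.2 CPM without and 23.1 CPM with LPS. In these bulk samples fewer cells of a type and less RNA per cell cannot be told apart.

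The promoter sequence of 8 of the 10 genes was held in the RefSeq table used here (GRCm38.p6), as windows of 300 bases that run from 250 before to 50 after an annotated start. Each window was searched on both strands for the core of the antioxidant response element, TGACNNNGC, which 10.2% of all 32851 windows held in the 250 bases before the start. The 8 members had 10 windows, 3 of them of Txnrd1, and 4 windows held it there, each of a different member. The stretches below are shown because this is the element NRF2 is known to bind. Capitals mark the match, and each stretch is read 5′ to 3′ on the strand of its gene.
Nfe2l2: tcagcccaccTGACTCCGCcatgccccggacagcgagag
Gclm: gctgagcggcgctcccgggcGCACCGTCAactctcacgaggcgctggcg
Prdx1: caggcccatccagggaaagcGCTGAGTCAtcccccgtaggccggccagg
Txnrd1: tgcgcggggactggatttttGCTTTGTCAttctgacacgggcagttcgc
The Nfe2l2 stretch lies at chr2:75704875-75704913 on the minus strand. The Gclm stretch lies at chr3:122245403-122245451, the Prdx1 stretch at chr4:116685446-116685494 and the Txnrd1 stretch, from the second of the 3 Txnrd1 starts listed, at chr10:82859094-82859142, all on the plus strand, and in these genes the element reads in the reverse orientation. In Prdx1 the match overlaps a match to the AP-1 site TGANTCA, a site found in 7.81% of all windows and also in Srxn1. Srxn1 held the antioxidant response core as well, at bases 29 to 37 after its start, so it is not among the stretches above. Over the whole 300 bases 5 members held that core, against 12.4% of all windows. Neither the core of the interferon-stimulated response element nor the STAT6 site, present in 3.44% and 6.95% of all windows, was found in a member window. A match is a run of letters, not a known binding site, and sequence farther away was not searched.

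Nfe2l2 (chr2:75675513-75704641, minus strand, mm10, GENCODE M21) was high in resting BMDMs, and its rise under IFN-γ + LPS was seen at 1 h and had passed by 4 h. The control libraries held 304, 318 and 297 CPM, those at 1 h 629, 677 and 680 CPM, and those at 4 h 344, 335 and 344 CPM. At 12 h Nfe2l2 stood at 318, 345 and 355 CPM and at 24 h at 277, 322 and 309 CPM. All 3 libraries at 1 h lay far above every other library in the series. The 4 and 12 h libraries sat just above the highest control, and the 24 h libraries overlapped the controls. At 1 h the log2 change was 1.08 ± 0.0871 (adjusted p = 9.06e-15), and by 4 h it was 0.10 ± 0.0908 (adjusted p = 0.353). At 12 and 24 h it was 0.10 ± 0.0891 and -0.02 ± 0.0884, neither of them called. Between 1 and 4 h the level fell by 0.98 on the log2 scale. Without TMM, on plain library totals, the small 4 h and 12 h differences changed sign, to -0.43 (called lower, adjusted p = 3.77e-05) and -0.21 (not called).

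Sqstm1 (chr11:50199366-50210827, minus strand) encodes p62, an autophagy receptor that binds KEAP1 and so frees NRF2, and is itself an NRF2 target. Its control libraries held 385, 404 and 354 CPM, and its libraries at 1 h 1235, 1170 and 1475 CPM. The 4 h libraries held 1545, 1760 and 1738 CPM, the 12 h libraries 829, 896 and 874 CPM and the 24 h libraries 1230, 1042 and 1215 CPM. Every stimulated library lay above every control, with the highest values at 4 h and a dip at 12 h. After 1, 4, 12 and 24 h Sqstm1 was higher than in controls by 1.73 ± 0.0950, 2.09 ± 0.0960, 1.14 ± 0.0948 and 1.61 ± 0.0947 log2 units, with adjusted p-values of 1.06e-14 or below. It fell from 4 to 12 h (log2 change -0.95) and rose again from 12 to 24 h (0.47).

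**Figure D1:**
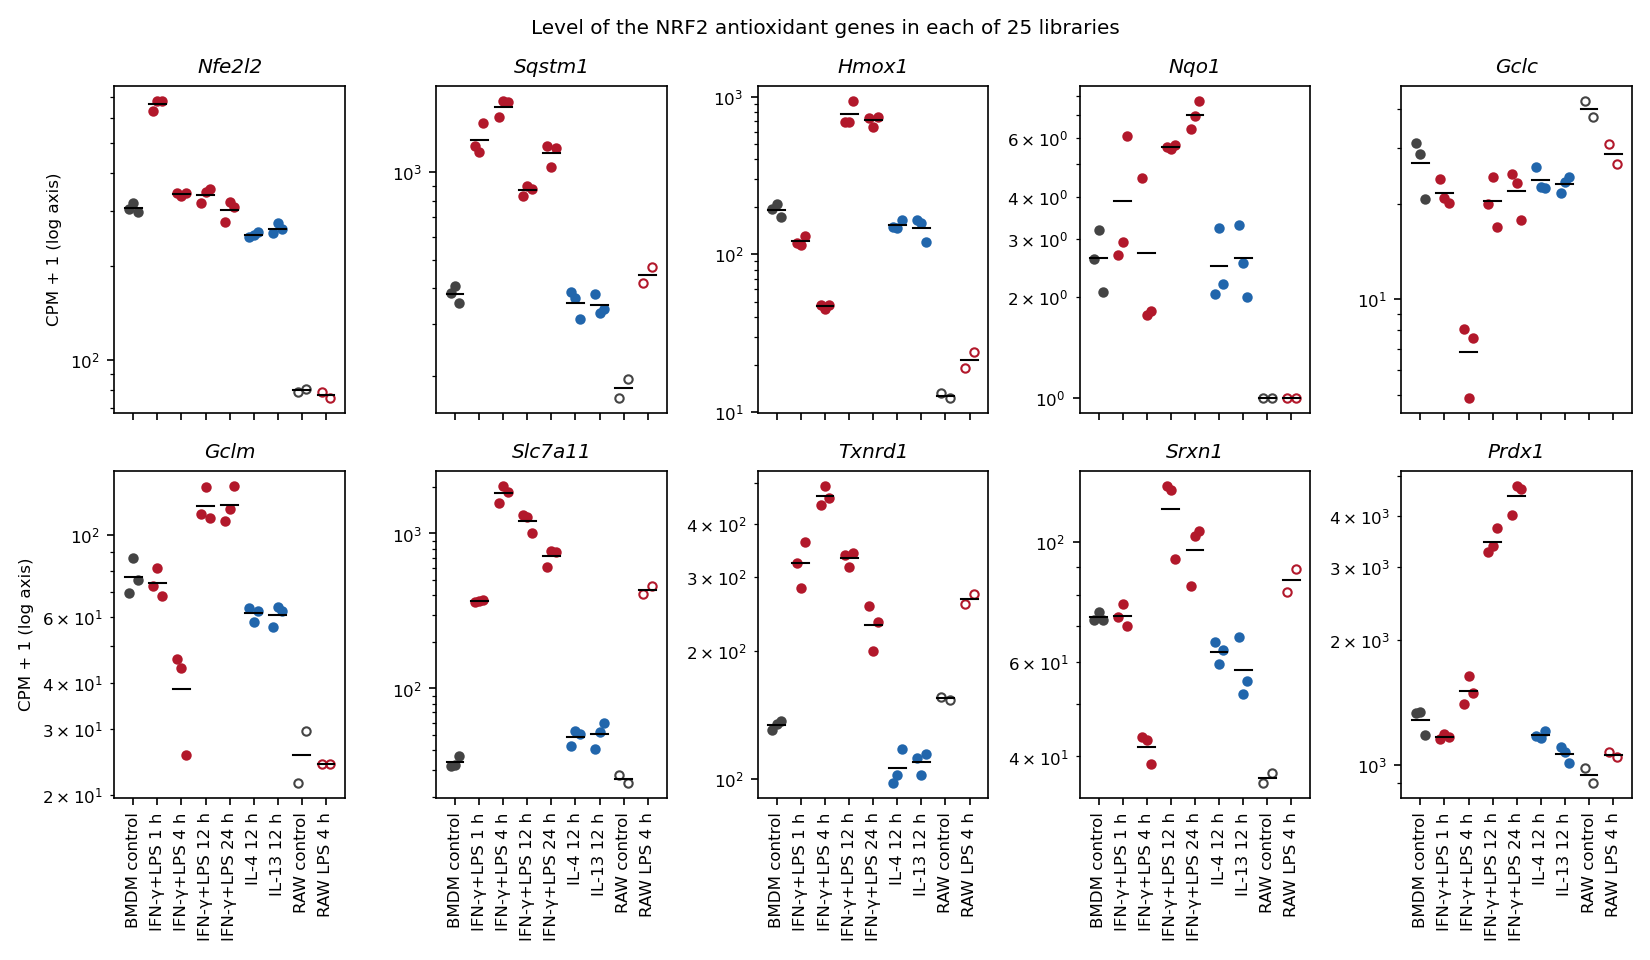
Level of each of the 10 genes in each of the 25 libraries, as CPM + 1 on a log axis whose range differs between panels, by condition. Each point is 1 library (open for RAW264.7) and each bar a group mean. Hmox1, Gclc, Gclm and Srxn1 have their lowest BMDM values at 4 h, and Nqo1 reaches at most 6.74 CPM.

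Slc7a11 (chr3:49892526-50443614, minus strand), the light chain of the cystine-glutamate exchanger xCT that brings in cystine for glutathione, changed most of the members. It stood at 30.6, 30.9 and 35.8 CPM in control libraries, at 362, 366 and 370 CPM at 1 h and at 1570, 2033 and 1859 CPM at 4 h. At 12 h its levels were 1311, 1275 and 1012 CPM and at 24 h 608, 769 and 757 CPM. No library of one time point overlapped those of another, and even the 24 h libraries stayed far above the controls. Its log2 changes after 1, 4, 12 and 24 h were 3.46 ± 0.137, 5.75 ± 0.136, 5.16 ± 0.135 and 4.45 ± 0.134, with adjusted p-values of 6.03e-25 or below. Over the 7 BMDM conditions its highest mean was 56.1 times its lowest, against 2.63 to 16.8 times for the other 8 tested members. Reads were taken by strand, so the antisense transcript Gm37854, which overlaps 8812 bases of the gene, did not enter its count. Gm37498 (4002 bases) and the pseudogene Gm37692 (232 bases) overlap Slc7a11 on the same strand. How reads there were assigned cannot be read from the counts.

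Transcripts of the enzyme that cystine import feeds moved the other way at 4 h. Glutamate-cysteine ligase makes the first bond of glutathione, with Gclc (chr9:77754535-77794485, plus strand) encoding its catalytic subunit and Gclm (chr3:122245557-122270732, plus strand) its modifier. Gclc was at 30.1, 27.7 and 19.8 CPM in controls, 22.9, 19.9 and 19.2 CPM at 1 h and only 7.08, 3.88 and 6.56 CPM at 4 h. At 12 h it stood at 19.1, 23.4 and 15.9 CPM, and at 24 h it was at 23.9, 22.4 and 16.8 CPM. The 4 h libraries lay below all the others, and the other stimulated groups overlapped the controls in their range. Gclc fell by 2.20 ± 0.298 log2 units at 4 h (adjusted p = 1.27e-08) and rose by 1.74 from 4 to 12 h. Its differences from control at 1, 12 and 24 h were -0.35 ± 0.205, -0.46 ± 0.210 and -0.31 ± 0.197 and were not called. On library totals without TMM the 12 h difference was -0.77 and was called lower (adjusted p = 0.00184).

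Gclm stood at 68.7, 85.2 and 74.3 CPM in controls, at 71.6, 80.4 and 67.3 CPM at 1 h and at 45.2, 42.7 and 24.6 CPM at 4 h. At 12 h it was at 113, 133 and 110 CPM and at 24 h at 108, 116 and 134 CPM. It was thus below every control library at 4 h and above every control library at 12 and 24 h. The log2 change was -1.08 ± 0.167 at 4 h (adjusted p = 2.69e-07), 0.59 ± 0.132 at 12 h (adjusted p = 0.000153) and 0.65 ± 0.129 at 24 h (adjusted p = 2.89e-05). At 12 h the change was 0.29 and was not called on library totals without TMM.

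Hmox1 (chr8:75093621-75100589, plus strand), heme oxygenase-1, which opens the heme ring to biliverdin, carbon monoxide and iron, moved in both directions. Its control libraries held 192, 207 and 172 CPM, those at 1 h 116, 113 and 130 CPM and those at 4 h 46.9, 44.2 and 46.7 CPM. At 12 h the levels were 687, 689.6 and 938 CPM and at 24 h 727, 640.1 and 746 CPM. Hmox1 was below all controls in the early groups and above all controls in the late ones, and the 12 and 24 h libraries overlapped each other. It fell by 0.69 ± 0.114 log2 units at 1 h and by 2.10 ± 0.138 at 4 h (adjusted p = 2.25e-18), then rose between 4 and 12 h by 4.08 ± 0.130. Against control it was higher by 1.97 ± 0.104 at 12 h and by 1.88 ± 0.104 at 24 h (adjusted p = 3.55e-21).

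Nqo1 (chr8:107388225-107403206, minus strand), the quinone reductase that is a standard NRF2 target, was close to undetected. It had 110 counts in the 25 libraries together and at most 16 in any one. Controls held 1.61, 2.17 and 1.07 CPM, the 12 h libraries 4.62, 4.55 and 4.71 CPM and the 24 h libraries 5.38, 5.96 and 6.74 CPM. The late groups did not overlap the controls, whereas the 1 h values (1.68, 1.93 and 5.06 CPM) and the 4 h values (3.54, 0.776 and 0.820 CPM) did. With all genes that had at least 1 count admitted to the test, Nqo1 was higher at 24 h by 1.89 ± 0.518 (adjusted p = 0.00108), and its 12 h difference of 1.47 ± 0.575 was not called (adjusted p = 0.0298).

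Thioredoxin reductase, sulfiredoxin and peroxiredoxin belong to the thiol system that removes peroxides and repairs oxidised proteins. Txnrd1 (chr10:82833951-82897712, plus strand), which recharges thioredoxin with electrons of NADPH, stood at 129, 134 and 136 CPM in controls and at 322, 282 and 361 CPM at 1 h. It reached 442, 491 and 458 CPM at 4 h and then stood at 337, 315 and 341 CPM at 12 h and at 255, 199.8 and 234 CPM at 24 h. All stimulated libraries lay above all controls. Eid3, on the same strand, overlaps 1305 bases of Txnrd1, and how reads there were assigned cannot be read from the counts. Txnrd1 rose by 1.25 ± 0.104, 1.75 ± 0.105, 1.27 ± 0.105 and 0.78 ± 0.105 log2 units after 1, 4, 12 and 24 h, with adjusted p-values of 1.14e-08 or below.

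Srxn1 (chr2:152105516-152111376, plus strand), which reduces overoxidised peroxiredoxins, was at 70.9, 73.3 and 70.6 CPM in controls, 71.6, 75.9 and 68.8 CPM at 1 h and 42.5, 41.9 and 37.7 CPM at 4 h. At 12 h it was at 126, 124 and 92.3 CPM and at 24 h at 82.1, 102 and 104 CPM. Like Gclm and Hmox1, it lay below all controls at 4 h and above them at 12 and 24 h. It fell by 0.87 ± 0.157 log2 units at 4 h (adjusted p = 5.17e-06) and was higher by 0.63 ± 0.127 at 12 h (adjusted p = 3.38e-05) and by 0.42 ± 0.126 at 24 h (adjusted p = 0.00396). The 24 h call was lost in DESeq2 (0.40, adjusted p = 0.0205), on library totals, and without control replicate 1, control replicate 3, 24 h replicate 2 or 24 h replicate 3 (adjusted p from 0.0147 to 0.0264), and the 12 h change was 0.33 and was not called on library totals.

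Prdx1 (chr4:116685544-116700822, plus strand), a peroxidase and the most abundant of the 10 transcripts per kilobase in resting cells, moved late. Its control libraries held 1333, 1336 and 1179 CPM, those at 1 h 1149, 1185 and 1164 CPM and those at 4 h 1397, 1638 and 1491 CPM. At 12 h it stood at 3259, 3371 and 3729 CPM and at 24 h at 4014, 4727 and 4648 CPM. Only the 12 and 24 h groups were called against control, at 1.38 ± 0.0862 (adjusted p = 3.60e-19) and 1.79 ± 0.0869 (adjusted p = 2.58e-23) log2 units. The 4 h difference of 0.18 ± 0.0859 (adjusted p = 0.0664) changed its sign on library totals (-0.35, called lower). On library totals Prdx1 was also called lower at 1 h (-0.36, adjusted p = 0.000381). Counting without regard to strand gave 84.5% of its sense count.

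**Figure D2:**
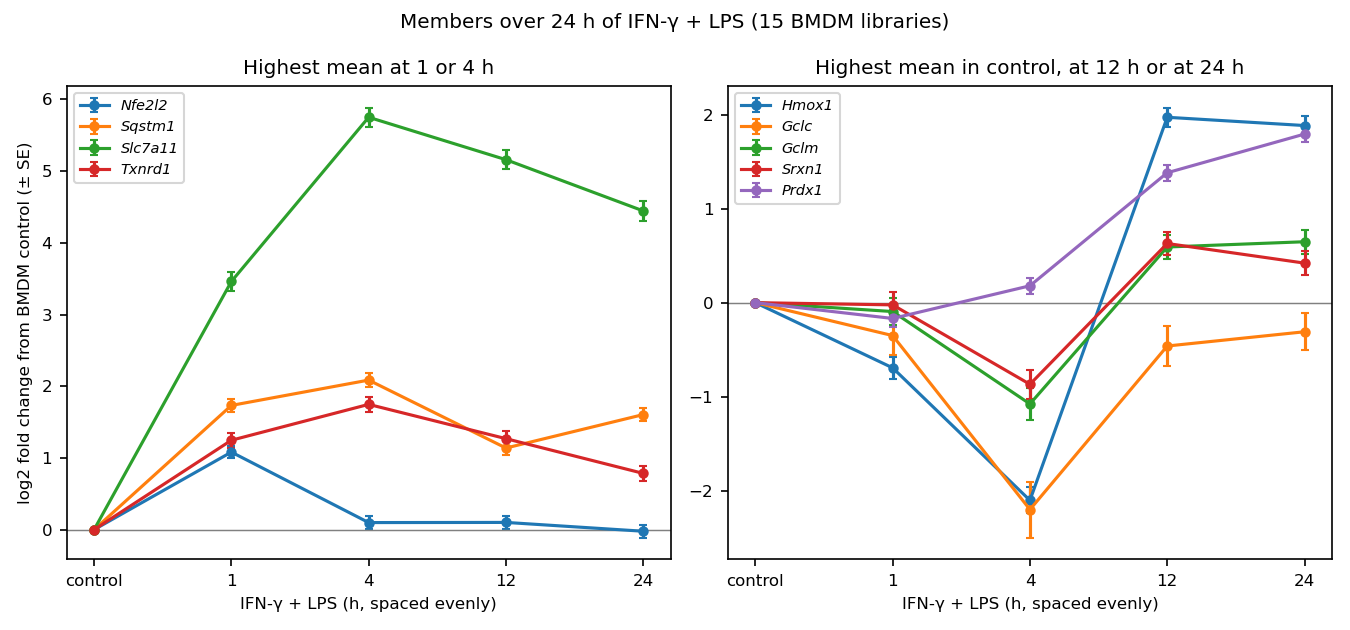
Log2 fold change from control (± SE) of the 9 tested members over 1, 4, 12 and 24 h of IFN-γ + LPS in BMDMs, with time spaced evenly. In the left panel Slc7a11, Sqstm1 and Txnrd1 are highest at 4 h and Nfe2l2 at 1 h. In the right panel Hmox1, Gclc, Gclm and Srxn1 dip at 4 h, and Hmox1 and Prdx1 are above 1 at 12 and 24 h.

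Counted over the 9 tested members, 4 rose and 1 (Hmox1) fell at 1 h, where 26% of all 9568 genes tested were called (14.7% higher and 11.3% lower). At 4 h 3 members rose and 4 fell, against 51.6% of genes called (26% higher and 25.6% lower). At 12 h 7 rose and none fell, against 47.3% of genes called (23.9% higher and 23.4% lower). At 24 h 7 rose and none fell, against 45.2% (23.9% higher and 21.3% lower). At 1 and 4 h the members thus had no common direction, while at 12 and 24 h all those called were higher. On library totals without TMM the higher and lower members numbered 4 and 2, 3 and 6, 5 and 1, and 6 and 0 at the 4 time points in turn. That scaling moved the median of all genes by -0.187, -0.525, -0.307 and -0.222 log2 units and left 15.6% of all genes higher and 48.3% lower at 4 h.

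Median log2 changes over the members for the same time points were -0.02, 0.10, 1.14 and 0.78, beside -0.03, -0.08, -0.03 and 0.02 over all genes. From 1 to 4 h all 9 tested members changed, 4 upwards and 5 downwards, against 38.9% of genes called (19.8% and 19.1%). From 4 to 12 h 8 changed, against 35.9% of genes called (16.7% higher and 19.2% lower): Hmox1, Gclc, Gclm, Srxn1 and Prdx1 rose while Sqstm1, Slc7a11 and Txnrd1 fell. From 12 to 24 h 4 changed, against 14.2% of genes called (5.31% higher and 8.9% lower), with Sqstm1 and Prdx1 rising and Slc7a11 and Txnrd1 falling. On library totals the step from 1 to 4 h had 1 member higher and 5 lower, since the small rises of Sqstm1 (0.35), Txnrd1 (0.50) and Prdx1 (0.35) were not called. The Sqstm1 step was also not called without 1 h replicate 1 or 2 (adjusted p = 0.0114 and 0.0163), nor the Prdx1 step without 4 h replicate 2 (adjusted p = 0.0101).

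The members therefore fell into groups by time course, given here as a description. Over the 7 BMDM condition means of log2 CPM, Pearson's r was 0.985 between Gclm and Srxn1, 0.965 between Hmox1 and Gclm and 0.948 between Hmox1 and Srxn1. It was 0.948 between Sqstm1 and Txnrd1, 0.937 between Slc7a11 and Txnrd1 and 0.923 between Sqstm1 and Slc7a11. Across these sets it was low, as between Hmox1 and Slc7a11 (0.138), and it was -0.171 between Nfe2l2 and Hmox1. With the RAW264.7 means added (9 conditions), where both genes were low, the value for Nfe2l2 and Hmox1 was 0.677. The points rest on the same libraries for every gene.

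Per kilobase of exon, with lengths from GENCODE M21, the order of the members changed with time. The annotation release behind the counts is not given, so ranks between genes could differ with other lengths. In controls Prdx1 led with 421 CPM per kb, followed by Sqstm1 (114), Hmox1 (109) and Nfe2l2 (80.7), and Slc7a11 was near the bottom with 2.33. At 4 h Sqstm1 (501 CPM per kb) and Prdx1 (496) were close, Slc7a11 came next with 131, and Hmox1 was down to 26.3. At 24 h Prdx1 had 1467 CPM per kb, Hmox1 402 and Sqstm1 346.

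**Figure D3:**
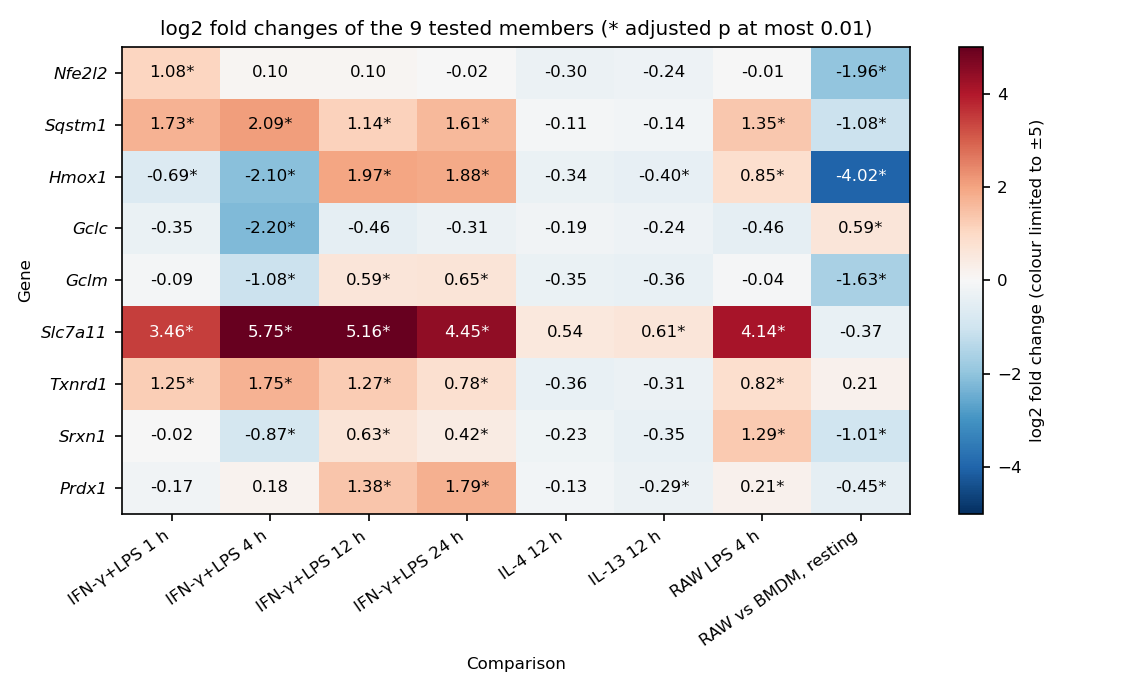
Heat map of the log2 fold change of the 9 tested members in 8 comparisons, with red for higher, blue for lower and a star for an adjusted p of at most 0.01. The IL-4 and IL-13 columns lie between -0.40 and 0.61, while the 4 h column runs from -2.20 to 5.75.

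IL-4 and IL-13, which signal through STAT6 and give the M2 state, moved these genes little in 12 h. No member was called after IL-4 in edgeR, where 7.63% of 9252 genes were (4.38% higher and 3.25% lower), although 5 had an unadjusted p under 0.05, and DESeq2 called 0 as well. Slc7a11 stood at 41.4, 52.3 and 49.5 CPM after IL-4 (log2 change 0.54 ± 0.161, adjusted p = 0.0175) and at 39.7, 51.2 and 59.2 CPM after IL-13. Both sets of libraries were above the 3 controls. Nfe2l2 was at 247, 251 and 257 CPM after IL-4 (log2 change -0.30, adjusted p = 0.0152) and at 254, 274 and 262 CPM after IL-13 (-0.24, adjusted p = 0.0509), below the controls in all 6 libraries without passing the test.

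After IL-13 3 members were called, against 10.1% of genes (5.61% higher and 4.49% lower). Slc7a11 rose by 0.61 ± 0.158 (adjusted p = 0.00387), Hmox1 fell by 0.40 ± 0.106 (adjusted p = 0.00494) to 164, 158 and 118 CPM, and Prdx1 fell by 0.29 ± 0.0758 (adjusted p = 0.00367) to 1104, 1070 and 1008 CPM. These calls were marginal: DESeq2 kept 1 of them, and none was left without control replicate 1, without control replicate 2 or without IL-13 replicate 3. Gclm (-0.36), Txnrd1 (-0.31) and Srxn1 (-0.35) had adjusted p-values between 0.0339 and 0.0485. Directly against IL-4, IL-13 gave no call among the members in edgeR or DESeq2 (0.108% of genes were called, 0.0865% higher and 0.0216% lower), and only Prdx1 had an unadjusted p under 0.05, with a difference of -0.16.

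Set against each other at 12 h, the M1 and M2 libraries differed in 8 of the 9 tested members, all higher under IFN-γ + LPS, both against IL-4 (41% of genes called, 21.1% higher and 19.9% lower) and against IL-13 (41% called, 21% higher and 20% lower). Against IL-4 the log2 differences were 4.65 for Slc7a11, 2.34 for Hmox1, 1.66 for Txnrd1, 1.55 for Prdx1, 1.28 for Sqstm1, 0.97 for Gclm, 0.89 for Srxn1 and 0.43 for Nfe2l2. Against IL-13 they ran from 0.36 for Nfe2l2 to 4.57 for Slc7a11. Gclc was the exception, at -0.24 against IL-4 and -0.20 against IL-13 and not called. On library totals 7 members were higher in each, with Nfe2l2 no longer called (0.08 against IL-4, and -0.0098 against IL-13).

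RAW264.7 cells began from other levels. Untreated, they held Nfe2l2 at 77.7 and 79.7 CPM, Hmox1 at 12.1 and 11.2 CPM and Sqstm1 at 166 and 194 CPM, all below every BMDM library of the same genes, the stimulated ones included. Gclc, at 41.3 and 36.6 CPM, was above every BMDM library. Against resting BMDMs 7 of 9 tested members differed, where 65.6% of all genes did (31.9% higher and 33.7% lower). Hmox1 (log2 difference -4.02 ± 0.177), Nfe2l2 (-1.96), Gclm (-1.63), Sqstm1 (-1.08), Srxn1 (-1.01) and Prdx1 (-0.45) were lower, while Gclc was higher by 0.59 ± 0.179 (adjusted p = 0.00242). On library totals 2 members were higher and 5 lower. The Gclc call was lost without BMDM control replicate 3 (0.42, adjusted p = 0.0487) or RAW264.7 control replicate 1 (0.50, adjusted p = 0.0430). Nqo1 had no count in any of the 4 RAW264.7 libraries, which allows a level of up to 0.272 CPM over the 4 together. Strain, medium and transformation all differ between these cells, and their shares in the difference cannot be told apart.

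LPS for 4 h in RAW264.7 raised 6 members and lowered none, against 27.9% of genes called (15.1% higher and 12.8% lower). Slc7a11 stood at 26.7 and 23.6 CPM in the untreated and 407 and 454 CPM in the treated libraries (log2 change 4.14 ± 0.112). Sqstm1 was at 417 and 471 CPM (1.35 ± 0.0807), Txnrd1 at 155 and 152 against 258 and 271 CPM (0.82 ± 0.0877), and Srxn1 at 34.7 and 36.2 against 80.0 and 88.4 CPM (1.29 ± 0.138). For each of these the treated pair lay clear of the untreated pair. Hmox1 (17.9 and 22.9 CPM, 0.85 ± 0.239) and Prdx1 (1069 and 1041 CPM, 0.21 ± 0.0647) were also called, but neither call held in DESeq2, on library totals, or without RAW264.7 control replicate 2 or LPS replicate 2. Gclc stood at 29.9 and 25.6 CPM after LPS (-0.46, adjusted p = 0.0213) and Gclm at 23.1 and 23.2 CPM, between its untreated values of 20.5 and 28.6 CPM. On library totals 4 were higher and 1, Gclc, lower. Nfe2l2, at 77.6 and 74.2 CPM after LPS, lay just below its untreated libraries (-0.01, not called). With n = 2 the spread was set wholly by that shared across genes, so these p-values lean on the other genes and not on the pair itself.

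Differences between the 4 h response of RAW264.7 to LPS and that of BMDMs to IFN-γ + LPS were tested as an interaction, and 7 of 9 tested members differed, against 25% of genes (9.75% higher and 15.3% lower in RAW264.7). The difference was positive for Hmox1, Srxn1, Gclc and Gclm. Gclc and Gclm fell in BMDMs, by 2.20 and 1.08 on the log2 scale, and stood at -0.46 and -0.04 in RAW264.7, where neither was called. Slc7a11, Txnrd1 and Sqstm1 rose in both cells and less in RAW264.7. On library totals 5 differed upwards and 2 downwards. Srxn1 fell in BMDMs and rose in RAW264.7, and so did Hmox1 with the limits given above. Because the RAW264.7 cells had no IFN-γ, the stimulus and the cell cannot be told apart, and BMDMs given LPS alone were not analysed here.

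**Figure D4:**
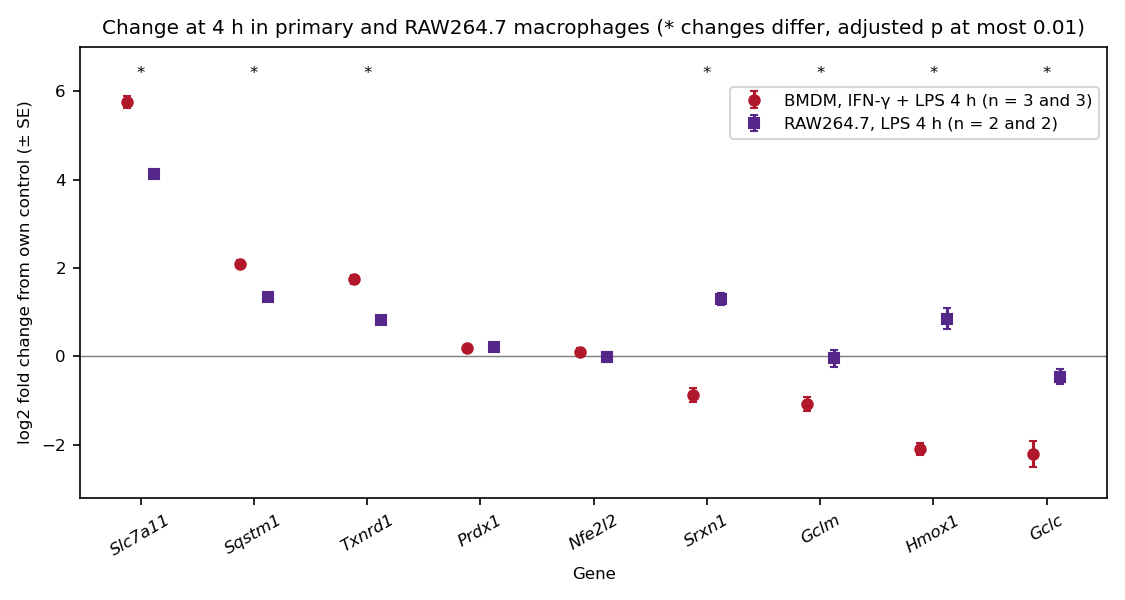
Log2 change at 4 h (± SE) of each tested member in BMDMs given IFN-γ + LPS (circles, n = 3 and 3) and in RAW264.7 given LPS (squares, n = 2 and 2), with a star where the changes differed. Slc7a11, Sqstm1 and Txnrd1 are up in both cells, and Hmox1 and Srxn1 are below 0 in BMDMs and above 0 in RAW264.7.

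Genes around the members were read from lists of pathway partners, against the shares of all genes called at each time given above. Of 10 regulators and partners of NRF2, 1 was called higher at 1 h, 5 were higher and 1 lower at 4 h, and 5 were higher and 2 lower at 12 and at 24 h. The one at 1 h was Maff, a small MAF protein that partners NRF2, at a mean of 2.87 ± 1.13 CPM (SD, n = 3) in controls and 204 ± 17.4 CPM at 1 h (log2 change 6.09 ± 0.211). Keap1, the NRF2 inhibitor, went from 36.3 ± 6.73 CPM in controls to 124 ± 0.389 CPM at 12 h (1.73 ± 0.132). Bach1, which represses Hmox1 by competing for the same elements, fell from 194 ± 8.04 CPM to 102 ± 6.59 CPM at 4 h (-0.98 ± 0.115) and 65.8 ± 5.44 CPM at 24 h (-1.56 ± 0.112).

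The thioredoxin and peroxiredoxin partners of the members also moved both ways, with 3 of 10 tested higher and 2 lower at 4 h and 4 higher and 2 lower at 24 h. Prdx5, a peroxidase, rose from 185 ± 22.7 CPM in controls to 1636 ± 20.4 CPM at 4 h and 3280 ± 251 CPM at 24 h (4.15 ± 0.0986), and Txn1, thioredoxin itself, from 135 ± 7.04 CPM to 727 ± 61.5 CPM at 12 h (2.38 ± 0.100). Catalase, Cat, fell from 148 ± 4.03 CPM to 44.6 ± 1.32 CPM at 4 h (-1.79 ± 0.143), and Txnip, which inhibits thioredoxin, was lower at 24 h (-1.35 ± 0.109). In the glutathione list 5 of 13 tested were higher and 4 lower at 4 h, among them Gpx1, a glutathione peroxidase, at 433 ± 16.4 CPM in controls and 196 ± 26.2 CPM at 4 h. Glrx, glutaredoxin, rose from 29.1 ± 5.69 CPM to 422 ± 9.73 CPM at 24 h (3.85 ± 0.168).

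Of 6 heme and iron genes 1 was higher and 4 lower at 4 h, and 3 higher and 1 lower at 24 h. Slc40a1, the iron exporter ferroportin, fell from 218 ± 11.7 CPM in controls to 3.58 ± 0.499 CPM at 4 h and 14.4 ± 1.09 CPM at 24 h, and Fth1, ferritin heavy chain, rose from 3994 ± 231 CPM to 9760 ± 657 CPM at 24 h (1.29 ± 0.0890). Blvrb, a biliverdin reductase, was higher at 24 h (1.82 ± 0.107). Slc40a1 was also lower after IL-4 (47.2 ± 8.94 CPM) and IL-13 (39.9 ± 7.59 CPM), where Fth1 fell by 0.46 ± 0.0738 and 0.66 ± 0.0740 on the log2 scale. Of 6 genes that supply NADPH none was higher and 3 were lower at 4 h, and 3 were higher and 2 lower at 24 h. G6pdx, the entry enzyme of the pentose phosphate pathway, was lower at 4 h (-0.74 ± 0.113) and higher at 24 h (1.00 ± 0.0961), and Idh1, cytosolic isocitrate dehydrogenase, was lower at 4, 12 and 24 h (-2.37 ± 0.190 at 24 h).

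Among 8 tested of 10 other genes described as NRF2 targets, 2 were higher and 4 lower at 4 h and 2 higher and 3 lower at 24 h. Marco, a scavenger receptor, had no count in the controls and stood at 6.54 ± 1.22 CPM at 4 h, 189 ± 53.4 CPM at 12 h and 688 ± 55.7 CPM at 24 h, whereas Cd36, another scavenger receptor, fell from 1146 ± 52.3 CPM to 325 ± 58.3 CPM at 24 h (-1.82 ± 0.128). Of 6 autophagy receptors and partners, beside Sqstm1, 2 were higher and 4 lower at 4 h, and none was higher and 4 were lower at 24 h. Nbr1, a receptor built like p62, fell from 149 ± 13.4 CPM to 50.2 ± 4.88 CPM at 4 h (-1.62 ± 0.133), a time at which Sqstm1 was at its highest.

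**Figure D5:**
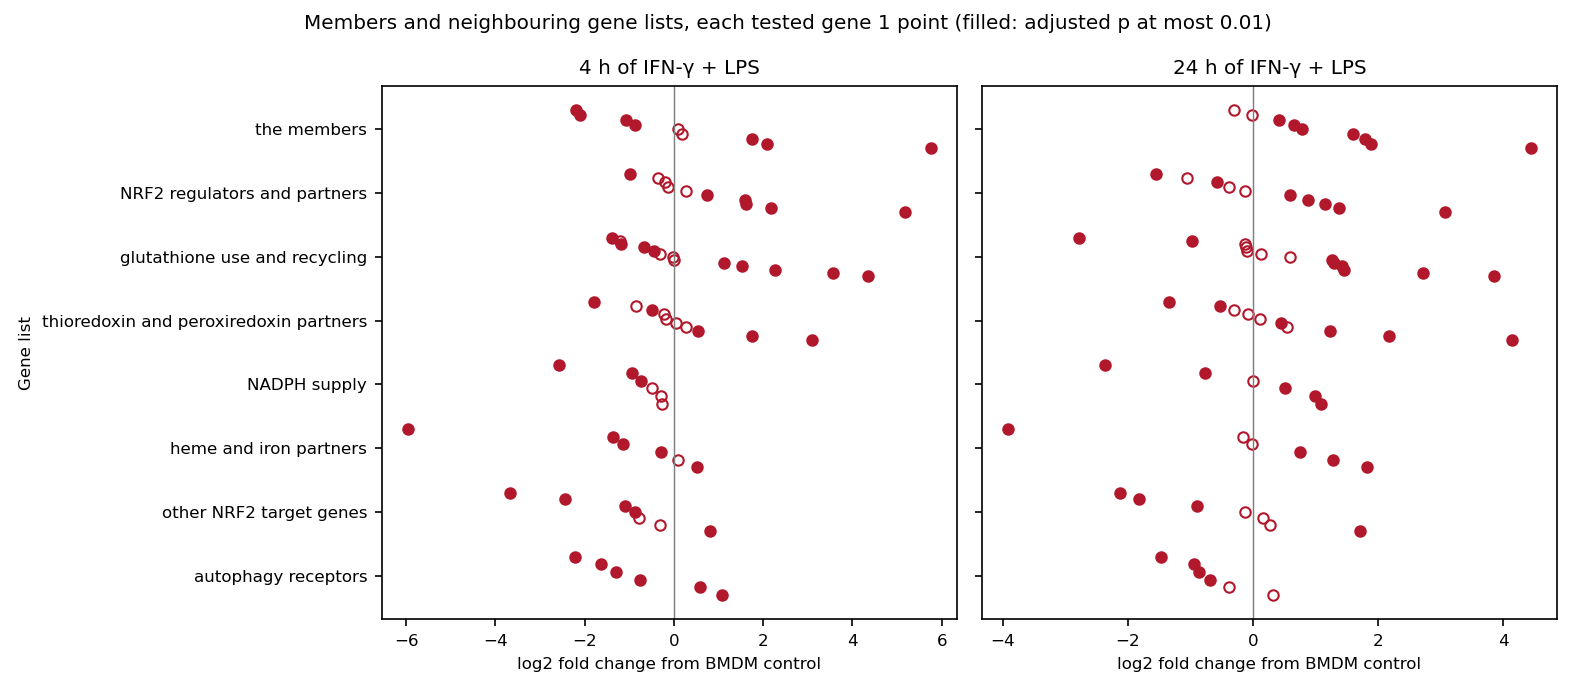
Log2 fold change of each tested gene of the members and the partner lists at 4 and 24 h of IFN-γ + LPS in BMDMs, 1 point per gene, filled where called. Marco is left out because it had no count in controls. At 4 h called genes lie on both sides of 0 in each list except NADPH supply, where the 3 called are lower.

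The genes whose pattern over the 9 conditions was most like that of a member were sought among 10484 genes, by Pearson's r of mean log2 CPM and as a description. For Nfe2l2 they were Neurl3 (0.990), Prdm1 (0.988), Canx (0.984), Gdf15 (0.980) and Psen2 (0.976). For Hmox1 they were Chpf2 (0.987), Fcho1 (0.984), Sphk2 (0.983), Tsg101 (0.979) and Cant1 (0.972). For Slc7a11 they were Malt1 (0.996) and Ccl12 (0.995), then Il6 (0.984), Il1a (0.983) and Gch1 (0.982), of which Il6, Il1a and Ccl12 encode inflammatory cytokines or a chemokine.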

How the data were processed

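RNA was taken from 21 BMDM and 4 RAW264.7 samples. Per the extraction protocol and the study's methods the authors depleted ribosomal RNA, although the molecule label reads polyA RNA. Per the labels they made strand-specific paired-end libraries, trimmed with Trimmomatic 0.33 and aligned with STAR 2.5.1 to mm10 (base calling with CASAVA 1.8.2), and they used DESeq2 themselves. The annotation release is not given in the sources used here. The deposited files hold raw read counts per gene symbol, from STAR, without and with regard to strand. The sense column was used, since the antisense counts were 0.840% of stranded counts, and rows for unassigned and multiply mapped reads were left out.

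Here Rn45s was removed and edgeR 4.0.16 (R 4.3.3) fitted quasi-likelihood models with TMM and its expression filter: control and IFN-γ + LPS groups together (15 libraries, 9568 genes), control, IL-4 and IL-13 (9 libraries, 9252 genes), RAW264.7 (4 libraries, 9406 genes), and all 25 libraries for M1 against M2 and RAW264.7 against BMDM (10612 genes). Each fit has its own TMM factors, so folds can differ slightly from ratios of the CPM shown. DESeq2 1.42.0, other scalings, filters, count columns and left-out libraries were the alternatives. Replicate pairs differed by more than sampling noise (chi-square per degree of freedom 1.30 to 4.53 over 23 pairs). The members and lists were chosen with earlier results of these data known. All members are named. Of each list, up to 2 genes each way per comparison are eligible, those with the largest changes among called genes of at least 5 CPM whose groups do not overlap. Positions come from GENCODE M21 and promoters from RefSeq. Python 3.11.15 drew the figures with matplotlib 3.10.9.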

Additional observations from a re-analysis of the deposited data

Results flagged for a closer look

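For 7 members the change at 4 h differed between RAW264.7 cells given LPS and BMDMs given IFN-γ + LPS, by edgeR's interaction test over all 25 libraries. The difference (RAW264.7 minus BMDM, log2) was positive for Hmox1 at 2.86 ± 0.284 (adjusted p = 2.00e-13), Srxn1 at 2.06 ± 0.217 (adjusted p = 9.15e-13), Gclc at 1.65 ± 0.358 (adjusted p = 0.000119) and Gclm at 0.942 ± 0.266 (adjusted p = 0.00334). It was negative for Slc7a11 at -1.71 ± 0.222 (adjusted p = 2.71e-09), Txnrd1 at -1.02 ± 0.153 (adjusted p = 7.09e-08) and Sqstm1 at -0.838 ± 0.149 (adjusted p = 3.29e-06). Nfe2l2 (-0.21) and Prdx1 (-0.07) were not called.

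The Gclm difference was lost without BMDM 4 h replicate 3 (0.714, adjusted p = 0.0316), BMDM control replicate 2, RAW264.7 control replicate 1 or either RAW264.7 LPS library, and that of Sqstm1 on library totals (-0.393). Groups of 2 and 3 libraries were too small for a test of outlying libraries.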

How the results depend on the processing

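Library totals without TMM changed most. Among changes called in at least 1 of the fits compared, they reversed the sign of Nfe2l2 at 4 h (-0.43), Prdx1 at 4 h (-0.35), Nfe2l2 under IFN-γ + LPS against IL-13 (-0.0098), Prdx1 in the response difference (0.37) and the partner gene Blvrb at 4 h (-0.013). Of changes called in neither, those they also turned included Nfe2l2 at 12 h (-0.21) and in the response difference (0.23), and Gclm between IL-13 and IL-4 (0.02). That scaling moved the median of all genes by 0.0851 or less (12 to 24 h, IL-4, IL-13) up to -0.525 (4 h), and by 0.441 in the response difference. The 3 calls after IL-13 became 1 in DESeq2, on library totals and in the fit of all 25 libraries. Leaving out 1 library gave 0 to 3 calls after IL-13 and 0 to 4 after IL-4 (4 without IL-13 replicate 1, 3 without IL-13 replicate 3), 4 to 6 in RAW264.7 after LPS, 6 to 8 at 24 h, 8 to 9 from 1 to 4 h, 6 to 8 between resting RAW264.7 and BMDMs and 6 to 7 in the response difference. The Nqo1 call at 24 h was lost without control replicate 3 (1.64, adjusted p = 0.0117). For the members' log2 changes, 1158 of 1206 values under other settings kept direction and side of the threshold, 25 lost the call, 4 gained it, 4 reversed and 15 changed the sign of a change never called. With a library left out 2117 of 2188 kept both, 33 lost the call, 7 gained it and 31 changed the sign of a change never called. The cause was not tested.

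No marked shared deviation was seen between same-numbered libraries. Their deviations correlated at a mean of 0.0201 over 30 pairs of the time course (-0.0524 to 0.153) and 0.00728 in the IL-4 and IL-13 fit. In RAW264.7 the same-numbered pairs all gave the same value, 0.0107. Whether same-numbered libraries shared an animal or culture is not given and was not tested. A replicate block left every count of called members as it was, with 5, 7, 7 and 7 at 1, 4, 12 and 24 h, 0 after IL-4 and 3 after IL-13, 6 in RAW264.7 and 7 in the response difference. At this depth Nqo1, at 16 counts or fewer, could not be followed at 1 or 4 h, and with n = 2 the RAW264.7 p-values rest on the spread shared by all genes.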

Other observations

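Partner genes of the NRF2 programme also differed between resting RAW264.7 cells and resting BMDMs, where 65.6% of all genes were called. Of 14 tested glutathione genes 4 were higher and 6 lower in RAW264.7. Mgst1, a microsomal glutathione transferase, stood at 167 ± 31.2 CPM (SD, n = 3) in BMDMs and had no count in untreated RAW264.7, and Gstm1, a cytosolic one, at 157 ± 4.11 CPM in BMDMs and 2.67 ± 0.333 CPM in RAW264.7 (n = 2). Fth1 was at 3994 ± 231 CPM in BMDMs and 290.1 ± 1.89 CPM in RAW264.7 (log2 difference -3.78 ± 0.112, edgeR). Higher in RAW264.7 were Keap1 (92.9 ± 0.848 against 36.3 ± 6.73 CPM) and Txn1 (353 ± 14.0 against 135 ± 7.04 CPM).

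After IL-4 and IL-13 some partner genes changed while most members did not pass the test. Of 11 tested glutathione genes 2 were higher and 2 lower after IL-4 (7.63% of all genes called), and 4 higher and 2 lower after IL-13 (10.1% of all genes called). Mgst1 rose by 0.73 ± 0.105 and 0.79 ± 0.104 log2 units, and Gsr, glutathione reductase, fell after IL-13 from 47.2 ± 8.87 to 19.8 ± 4.17 CPM (-1.26 ± 0.182). Cat fell by 0.77 ± 0.109 after IL-4 and by 0.73 ± 0.108 after IL-13. Cd36 rose by 0.47 ± 0.0766 and 0.56 ± 0.0765, opposite in sign to its change under IFN-γ + LPS.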
